A study of Mus musculus with 8 samples.

Results

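Amino acid transporters of 7 solute carrier families were followed in mouse tibialis anterior muscle, a fast-twitch muscle of the lower leg, after a 24 h fast. The set was every gene whose symbol begins with Slc1a, Slc3a, Slc6a, Slc7a, Slc36a, Slc38a or Slc43a and that had a row of the expression table annotated with that symbol alone. It held 60 genes of the 14860 genes that could be named in this way, and each of the 60 had 1 row. One of them, Slc7a6os, is taken by its prefix alone: it is named for lying opposite Slc7a6 and is not a transporter, which leaves 59 transporter genes. The rule that picks the genes uses symbols and no expression value, though the families were proposed with earlier results of these data known.

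The fasted group was male mice aged 8 weeks that had been without food for 24 h, and the fed group was male mice of the same age with free access to food. No strain, genotype or other treatment is given in the labels. Each array carried RNA pooled from 3 mice, and the experiment was done 4 times with 1 fasted and 1 fed pool each, so that 4 arrays stood in each group. Values are log2 expression on exon arrays, 1 value per transcript cluster, the unit in which the array groups the probes of a gene, and 16755 clusters were measured.

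Muscle holds a large pool of free and protein-bound amino acids, and during fasting it releases amino acids, above all alanine and glutamine, to the liver and other organs. Amino acids cross membranes through carriers of several families. Some light chains of the SLC7 family work only when bound to a heavy chain of the SLC3 family and exchange one amino acid for another. Members of the SLC38 family take up small neutral amino acids and glutamine with sodium. The SLC43 members LAT3 and LAT4 let large neutral amino acids pass down their gradient, and some SLC36 members couple transport to protons. The SLC6 family also carries taurine, creatine, betaine, GABA and the monoamines, and Slc43a3 carries purine nucleobases, so part of the set moves substrates other than the amino acids of proteins.

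The arrays looked like muscle. Of the muscle fibre genes on a fixed list, 7 had a usable row, among them Acta1, Ckm and Pvalb, and the mean log2 level over these 7 was 11.12 to 11.49 in fasted and 11.15 to 11.59 in fed pools. None of the 7 passed the test between fasted and fed muscle, with 0 at an unadjusted p under 0.05 in limma. The known fasting genes Fbxo32, which encodes the ubiquitin ligase atrogin-1, and Pdk4, a kinase that restrains glucose oxidation, differed by 2.13 and 1.91 on the log2 scale, fasted minus fed. Among markers of other cell types, 1 of 5 adipocyte genes passed, Plin4 at 0.68 ± 0.10 (SE, adjusted p = 0.0330). Fabp4, at 0.38 ± 0.11 (SE, adjusted p = 0.235), did not pass but was, like Plin4, without overlap between the groups, and Lep, Plin1 and Adipoq were at 0.19, -0.04 and -0.10 with overlapping groups. The median of the 5 was 0.19. The call of Plin4 ended when any 1 experiment was left out, at adjusted p of 0.125, 0.157, 0.0631 and 0.148 without experiments 1 to 4. The mean level of the 5 adipocyte genes was 6.43 to 6.60 in fasted and 6.11 to 6.47 in fed pools. None of the measured Schwann cell (3), endothelial (6), leukocyte (5), erythroid (2), fibroblast (6) or satellite cell (4) genes passed. At an unadjusted p under 0.05, limma placed 2 adipocyte, 1 endothelial, 1 leukocyte and 1 fibroblast gene higher, against 5.15% of all clusters. It placed 1 endothelial and 3 fibroblast genes lower, against 5.79%. The median of the 6 fibroblast genes was -0.35. Lum was at -0.95 ± 0.19 (SE, adjusted p = 0.0899 by limma) without overlap between the groups. With overlap, Col1a2, Col1a1 and Col3a1 were at -0.45, -0.39 and -0.30, and Pdgfra and Dcn at 0.29 and 0.14. The part of these cells in the results below was not tested.

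The comparison asked which transporter mRNAs differed between fasted and fed muscle. One of the 60 genes rose in fasted muscle, Slc43a1, which encodes LAT3, a carrier of leucine, isoleucine, valine, phenylalanine and methionine, and none fell (limma with experiment as a block, adjusted p under 0.05 over all clusters). Over all clusters, 0.531% passed higher and 0.286% lower, 0.818% in either direction. At an unadjusted p under 0.05, 8 of the 60 genes were higher and 0 lower, against 5.15% and 5.79% of all clusters. The 8 were Slc43a1, Slc43a3, Slc7a2, Slc7a6, Slc7a8, Slc38a2, Slc43a2 and Slc3a2. Every fasted pool lay above every fed pool for 6 of the 60 genes, against 3.55% of all clusters, and below for 0, against 3.22%. The median difference over the 60 genes was 0.03 on the log2 scale, against -0.02 over all clusters. With fewer arrays, the number that rose was 0 when experiment 1, 2 or 4 was left out, 2 without experiment 3. In bulk RNA, fewer cells of a type and less RNA per cell cannot be told apart.

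**Figure D1:**
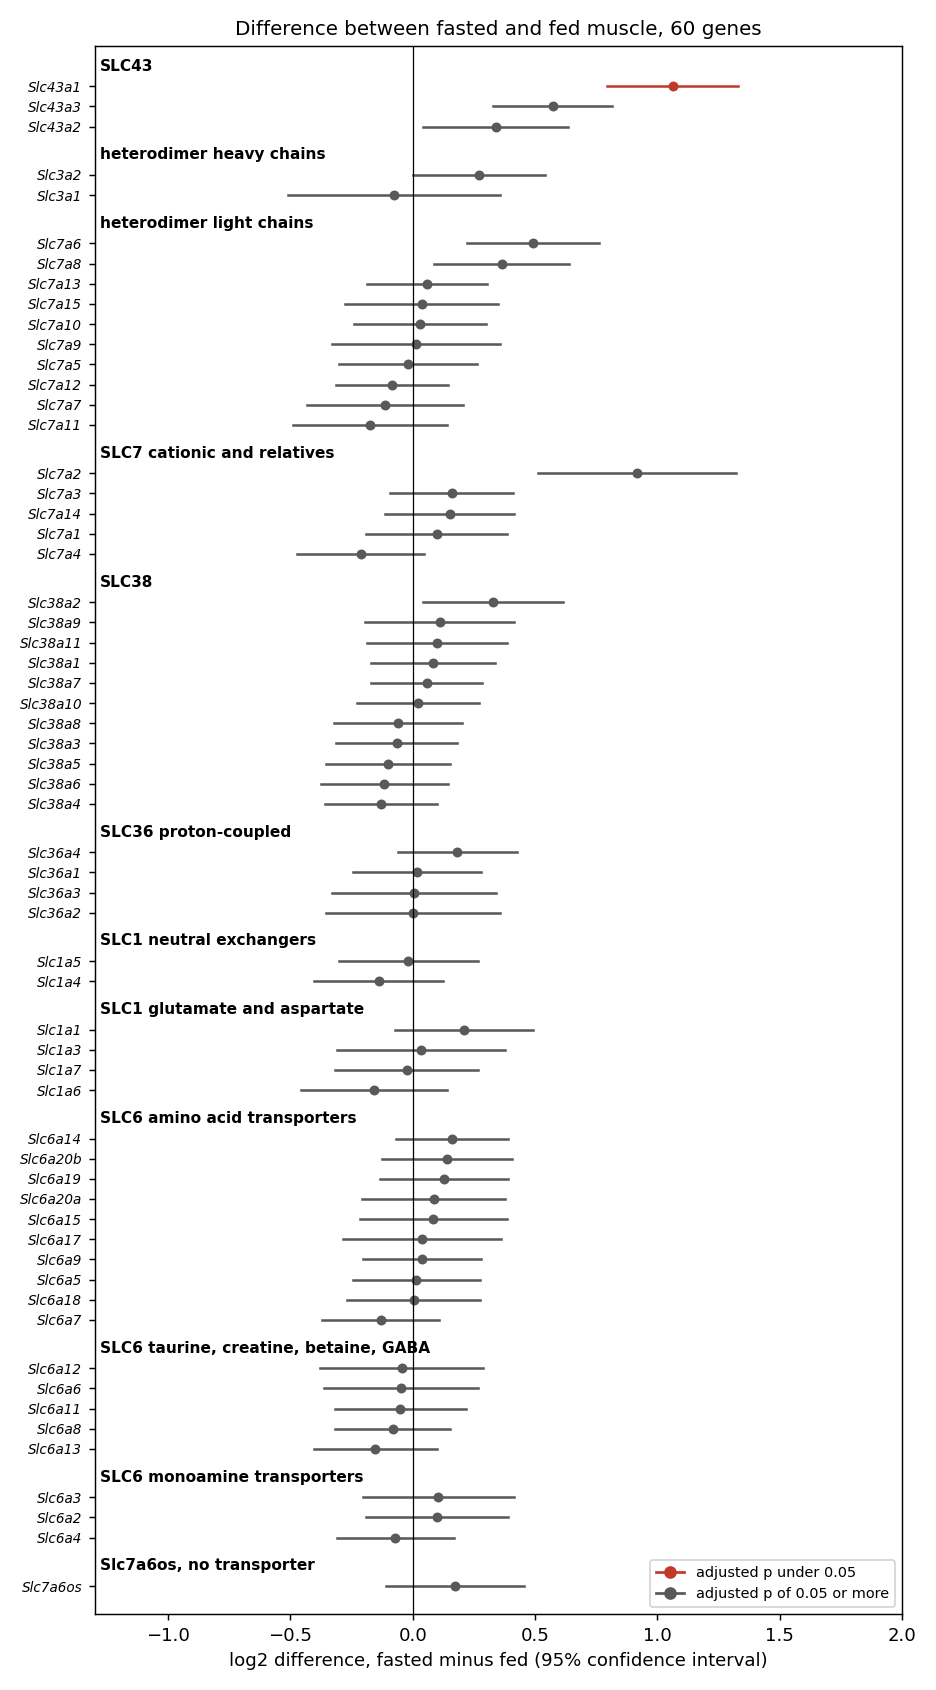
Log2 difference, fasted minus fed, of the 60 genes on the horizontal axis, grouped by role, with 95% confidence intervals from limma (4 pools per group). Slc43a1 at 1.06 is the gene drawn in red, which marks an adjusted p under 0.05, and the 52 genes at an unadjusted p of 0.05 or more lie between -0.21 and 0.21.

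The stretch before the transcription start of Slc43a1, the gene that rose, is shown beside that of Slc43a2, its relative encoding LAT4, which did not pass. Both are the 250 bases before a RefSeq start on build GRCm38.p6, on the plus strand and written 5′ to 3′. Slc43a1 lies at chr2:84840073-84840322 and Slc43a2, of which the first of the listed starts is shown, at chr11:75531444-75531693. Capitals mark a match to a searched motif.
Slc43a1: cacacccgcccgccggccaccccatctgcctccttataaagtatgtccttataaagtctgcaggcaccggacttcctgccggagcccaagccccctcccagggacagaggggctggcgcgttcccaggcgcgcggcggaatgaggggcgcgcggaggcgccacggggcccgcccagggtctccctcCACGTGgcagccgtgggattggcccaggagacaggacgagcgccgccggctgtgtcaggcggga
Slc43a2: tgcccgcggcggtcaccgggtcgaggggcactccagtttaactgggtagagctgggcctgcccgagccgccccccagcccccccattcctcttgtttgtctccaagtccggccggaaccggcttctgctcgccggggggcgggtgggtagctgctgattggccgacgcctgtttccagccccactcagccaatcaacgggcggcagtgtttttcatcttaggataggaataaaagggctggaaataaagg
Both strands were searched for the E-box CACGTG, the core TGATGNAA of the element bound by ATF4 and the FoxO site GTAAACA, motifs that were chosen after the values were seen. The Slc43a1 window held 1 match, an E-box from base -64 to -59 relative to the start, and the Slc43a2 window none. E-boxes were in 8 of the 64 windows of the 43 genes of the set with a promoter window in the RefSeq table used, which held none for Slc43a3 and Slc7a2, and in 6.02% of 32851 windows of all genes. The ATF4 core was in 3 and the FoxO site in 2 of the 64 windows, against 3.45% and 3.17% of all windows. Besides Slc43a1, the genes with an E-box were Slc1a6, Slc1a7, Slc36a1, Slc38a5, Slc38a7, Slc6a3 and Slc7a14. Their differences were -0.16, -0.03, 0.02, -0.10, 0.06, 0.10 and 0.15, and none was at an unadjusted p under 0.05 in limma. The ATF4 core was in windows of Slc7a11 and Slc7a7, and the FoxO site in windows of Slc36a3 and Slc7a11. The windows of Slc7a6, Slc7a8, Slc38a2 and Slc3a2 held none of the 3 motifs. Bases after the start were not searched, so elements within a gene are not covered. A match is a run of letters and was not tested as a binding site.

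In the SLC43 family all 3 genes were higher in every experiment, against 8.61% of all clusters, and 1 passed. For all 3, every fasted pool lay above every fed pool, against 3.55% of all clusters. Values are given in the order of experiments 1 to 4 from here on. Slc43a1 (transcript cluster 6878712) had log2 levels of 7.39, 7.31, 7.05 and 7.54 in fasted pools, against 6.18, 6.08, 6.25 and 6.54 in fed pools. Every fasted pool lay above every fed pool, and the lowest fasted pool was that of experiment 3. The mean was 7.32 ± 0.20 in fasted and 6.26 ± 0.20 in fed pools (SD, n = 4), a difference of 1.06 ± 0.12 (SE, adjusted p = 0.0134 by limma), or 2.09-fold (95% confidence interval 1.73 to 2.51). Within experiments the difference was 1.21, 1.22, 0.81 and 1.00. The call ended without experiment 1, 2 or 4, at adjusted p of 0.0737, 0.0619 and 0.0542, where the difference was 1.01, 1.01 and 1.08.

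Slc43a3, which encodes a carrier of purine nucleobases rather than of amino acids (cluster 6878713), had log2 levels of 8.54, 8.29, 8.25 and 8.21 in fasted pools, against 8.08, 7.56, 7.65 and 7.71 in fed pools. The groups did not overlap, and the pools of experiment 1 were the highest on both sides. The difference was 0.57 ± 0.10 (SE, adjusted p = 0.0650). It missed the threshold by little and was past it in 3 of 12 other settings of the test. Slc43a2, encoding LAT4, which carries much the same large neutral amino acids as LAT3, had 5.89, 5.78, 6.25 and 6.04 in fasted pools, against 5.57, 5.73, 5.55 and 5.76 in fed pools. The groups did not overlap, though the fasted pool of experiment 2 was only slightly above the highest fed pool. The difference was 0.34 ± 0.13 (SE, adjusted p = 0.373) and was past the threshold in 0 of these 12 settings.

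Slc43a1 and Slc43a3 lie close together on mouse chromosome 2, with 1 protein-coding gene, Rtn4rl2, between them in RefSeq. Rtn4rl2, which encodes a relative of the Nogo receptor, had log2 levels of 5.91, 5.99, 6.26 and 6.04 in fasted pools, against 6.49, 6.11, 6.11 and 6.14 in fed pools, and the groups overlapped. Its difference was -0.16 ± 0.14 (SE, adjusted p = 0.788). On the outer sides, Smtnl1 was at 0.08 ± 0.12, Prg2 at 0.00 ± 0.16 and Prg3 at 0.07 ± 0.11 (SE, adjusted p of 0.934, 1 and 0.921). None of these 4 neighbours passed, and all 4 had overlapping groups. Timm10, which lies between Smtnl1 and Slc43a1, had no usable row.

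**Figure D2:**
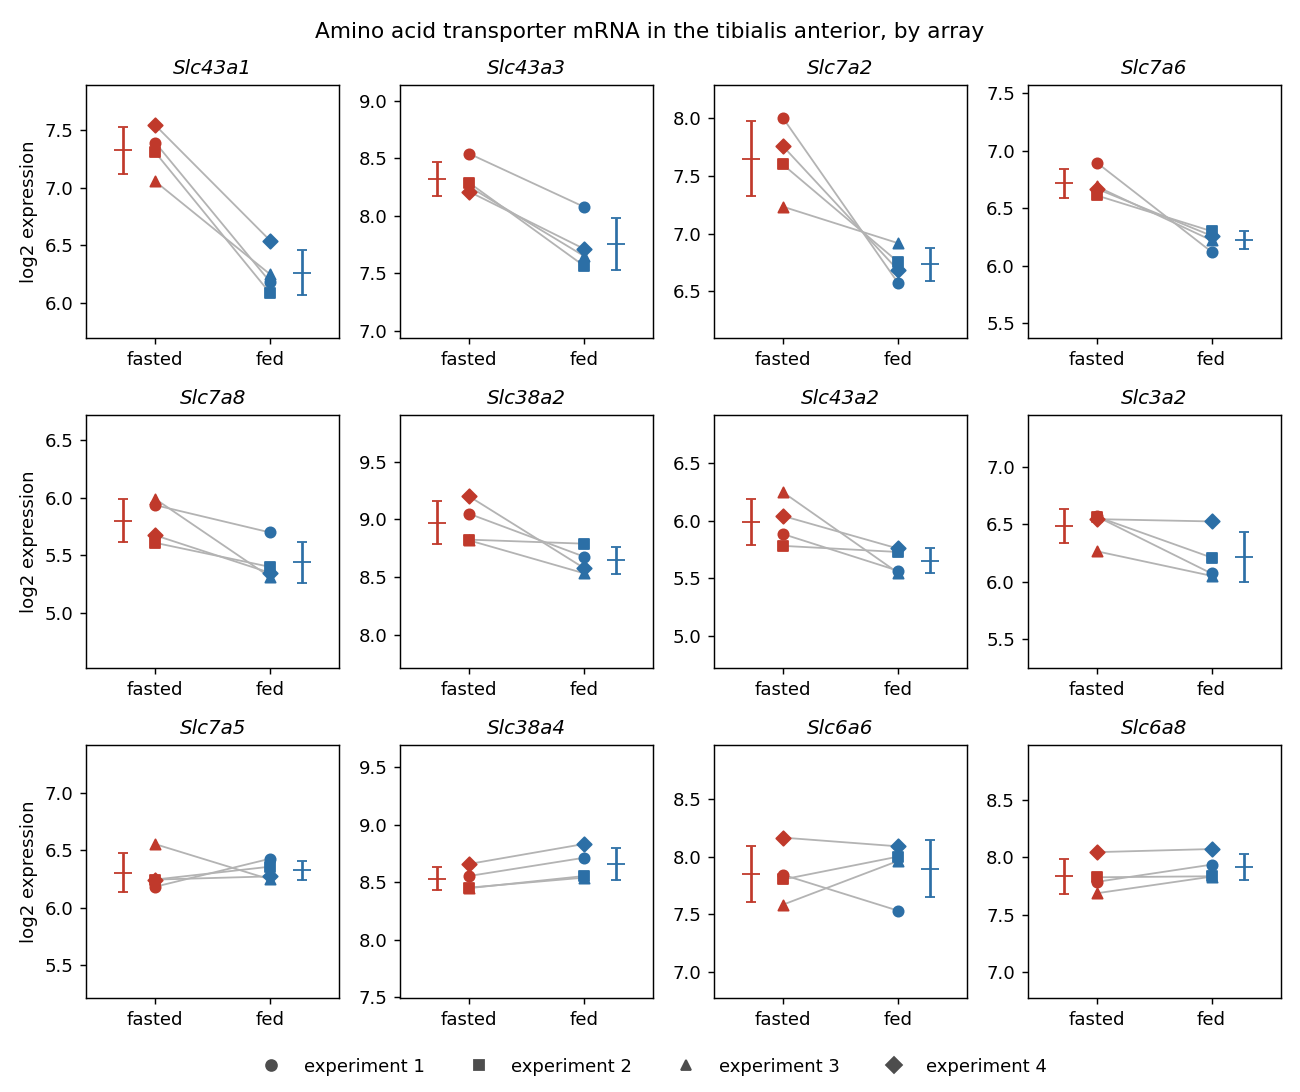
Log2 expression (vertical axis, the same span in every panel) of the 8 genes with the smallest p and of Slc7a5, Slc38a4, Slc6a6 and Slc6a8 in each fasted (red) and fed (blue) pool, with grey lines joining the pools of 1 experiment and bars for the mean and SD (n = 4). The fasted pools of Slc43a1 sit between 7.05 and 7.54, all above the fed pools at 6.08 to 6.54, while those of Slc7a5 overlap the fed pools.

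The SLC7 genes for cationic amino acids were led by Slc7a2, which encodes CAT-2, a carrier of arginine, lysine and ornithine. Its log2 levels were 8.01, 7.60, 7.23 and 7.76 in fasted pools, against 6.57, 6.76, 6.92 and 6.68 in fed pools. The groups did not overlap, but the fasted pool of experiment 3 was close to the fed pool of that experiment, and the difference ranged over 1.43, 0.84, 0.32 and 1.08 in experiments 1 to 4. The mean difference was 0.92 ± 0.17 (SE, adjusted p = 0.0715), or 1.89-fold (95% confidence interval 1.43 to 2.50), and did not pass. It passed without the experiment block (adjusted p = 0.0180), without experiment 3 (difference 1.12, adjusted p = 0.0343) and in 6 of the 12 settings in all, with adjusted p from 0.0155 to 0.236.

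The other genes of this group did not pass, and none was at an unadjusted p under 0.05. Slc7a1, which encodes the widespread cationic carrier CAT-1, had 5.83, 6.11, 6.30 and 5.80 in fasted pools, against 5.94, 6.04, 5.85 and 5.81 in fed pools. Its groups overlapped, and the difference of 0.10 ± 0.12 (SE) had a 95% confidence interval of -0.19 to 0.39. Slc7a3, encoding CAT-3, had 5.43, 5.63, 5.69 and 5.40 in fasted pools, against 5.48, 5.47, 5.47 and 5.10 in fed pools, with the fed pool of experiment 4 apart from the other fed pools. Its difference was 0.16 ± 0.11 (SE, adjusted p = 0.713). Slc7a4, a relative for which transport is not established, had 5.21, 5.29, 5.31 and 5.21 in fasted pools, against 5.59, 5.59, 5.49 and 5.19 in fed pools. It was lower in 3 of 4 experiments with overlapping groups, at -0.21 ± 0.11 (SE, adjusted p = 0.573), the most negative difference of the 60 genes. Slc7a14, another relative, was at 0.15 ± 0.11 (SE).

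Heterodimeric exchangers are built from a heavy chain and a light chain. Of the heavy chains, Slc3a2, which encodes CD98, had log2 levels of 6.57, 6.57, 6.26 and 6.54 in fasted pools, against 6.07, 6.21, 6.05 and 6.52 in fed pools. It was higher in 4 of 4 experiments, by 0.50, 0.36, 0.21 and 0.02, but the fed pool of experiment 4 was close to the fasted pools of experiments 1, 2 and 4 and above that of experiment 3, so the groups overlapped. The difference was 0.27 ± 0.12 (SE, adjusted p = 0.452). Slc3a1, the heavy chain of the kidney and gut cystine carrier, was at -0.08 ± 0.19 (SE) with a wide interval of -0.51 to 0.36.

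None of the 10 light chain genes passed. In limma, 2 were at an unadjusted p under 0.05, both higher, against 5.15% of all clusters higher and 5.79% lower. Slc7a6 encodes y+LAT2, which exchanges cationic against neutral amino acids and sodium, and it had 6.90, 6.61, 6.69 and 6.67 in fasted pools, against 6.12, 6.30, 6.22 and 6.26 in fed pools. The groups did not overlap, and the largest difference was in experiment 1, where the fed pool was also the lowest. The mean difference was 0.49 ± 0.12 (SE, adjusted p = 0.144), and it was past the threshold in 1 of the 12 settings, with experiment as a random block (0.0423). Slc7a6os, on the opposite strand beside Slc7a6, had 7.26, 7.08, 7.23 and 7.18 in fasted pools, against 7.04, 7.25, 6.90 and 6.86 in fed pools, with overlapping groups and a difference of 0.17 ± 0.12 (SE, adjusted p = 0.733). Slc7a8 encodes LAT2, an exchanger of neutral amino acids, and had 5.94, 5.61, 5.99 and 5.68 in fasted pools, against 5.70, 5.40, 5.31 and 5.35 in fed pools. It was higher in 4 of 4 experiments, but the fed pool of experiment 1 exceeded the fasted pools of experiments 2 and 4. The difference was 0.36 ± 0.12 (SE, adjusted p = 0.286).

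Slc7a5, which encodes LAT1, the leucine exchanger that pairs with CD98, had 6.18, 6.25, 6.55 and 6.25 in fasted pools, against 6.43, 6.36, 6.25 and 6.27 in fed pools. It was higher in experiment 3 and lower in the others, and the fasted pool of experiment 3 stood apart from the remaining fasted pools. The difference of -0.02 ± 0.12 (SE, adjusted p = 0.987) had an interval of -0.30 to 0.26. The remaining light chains lay between -0.17 and 0.06: the cystine and glutamate exchanger Slc7a11 at -0.17, Slc7a7, encoding y+LAT1, at -0.11, Slc7a12 at -0.08, the renal light chain Slc7a9 at 0.01, the small neutral amino acid carrier Slc7a10 at 0.03, Slc7a15 at 0.04 and Slc7a13 at 0.06. Their SE ranged from 0.10 to 0.15.

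None of the 11 SLC38 genes passed, and their median difference was 0.02. Slc38a2 encodes SNAT2, a sodium-coupled carrier of small neutral amino acids that cells induce when amino acids run short. Slc38a2 was the only 1 of the 11 at an unadjusted p under 0.05 in limma, against 5.15% of all clusters higher and 5.79% lower. Its log2 levels were 9.05, 8.82, 8.82 and 9.20 in fasted pools, against 8.68, 8.79, 8.53 and 8.58 in fed pools. The fasted pools lay above the fed pools with a small gap, and the difference within experiments ranged widely, at 0.37, 0.04, 0.29 and 0.62. The mean difference was 0.33 ± 0.12 (SE, adjusted p = 0.369).

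Slc38a4, encoding SNAT4, had 8.55, 8.45, 8.45 and 8.66 in fasted pools, against 8.71, 8.55, 8.54 and 8.83 in fed pools. It was lower in 4 of 4 experiments by a small amount, -0.13 ± 0.10 (SE, adjusted p = 0.758), and the groups overlapped. Slc38a3 encodes SNAT3, a glutamine carrier that couples sodium against protons, and had 7.13, 7.14, 7.06 and 7.70 in fasted pools, against 7.28, 7.18, 7.24 and 7.59 in fed pools. Both pools of experiment 4 were the highest of their group, and the difference was -0.07 ± 0.11 (SE, interval -0.31 to 0.18). Slc38a9, a lysosomal carrier that relays arginine to mTORC1, had 6.81, 6.70, 6.57 and 6.63 in fasted pools, against 6.29, 6.77, 6.62 and 6.60 in fed pools. The fed pool of experiment 1 was low and the other pools lay close together, which gave 0.11 ± 0.13 (SE, interval -0.19 to 0.41). The other 7 ranged from -0.12 for Slc38a6 to 0.10 for Slc38a11, with Slc38a1 (SNAT1) at 0.08, Slc38a5 (SNAT5) at -0.10, the lysosomal glutamine carrier Slc38a7 at 0.06, Slc38a8 at -0.06 and Slc38a10 at 0.02. Slc38a7 was higher in 4 of 4 experiments, but by no more than 0.07 in any of them.

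The 4 SLC36 genes did not pass, and 0 were at an unadjusted p under 0.05 in limma. Slc36a1, found on lysosomes and at the cell surface, had 5.87, 6.14, 6.19 and 6.04 in fasted pools, against 6.09, 6.17, 6.01 and 5.91 in fed pools. Its groups overlapped and the difference was 0.02 ± 0.11 (SE, interval -0.24 to 0.28). Slc36a4 had 5.35, 5.02, 4.98 and 5.16 in fasted pools, against 5.12, 4.79, 4.97 and 4.91 in fed pools. It was higher in 4 of 4 experiments with overlapping groups, at 0.18 ± 0.10 (SE, adjusted p = 0.621). Slc36a2 and Slc36a3 were at 0.00 and 0.01, each the balance of values below 0 in experiments 1 and 2 and above 0 in experiments 3 and 4.

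Of the SLC1 family, 6 genes were measured, none passed and 0 were at an unadjusted p under 0.05. Slc1a5 encodes ASCT2, a sodium-dependent exchanger of neutral amino acids including glutamine, and had 6.38, 6.18, 6.06 and 6.11 in fasted pools, against 6.27, 5.93, 6.32 and 6.29 in fed pools. The fed pool of experiment 2 stood below the other fed pools, and the difference of -0.02 ± 0.12 (SE) had an interval of -0.30 to 0.27. Its relative Slc1a4 was at -0.14 ± 0.11 (SE). Among the glutamate and aspartate carriers, Slc1a1 had 5.41, 5.62, 5.55 and 5.42 in fasted pools, against 5.52, 5.33, 5.10 and 5.22 in fed pools, higher in 3 of 4 experiments with overlapping groups, at 0.21 ± 0.12 (SE, adjusted p = 0.632). Slc1a3, known as a glial glutamate carrier, had 4.82, 5.03, 5.36 and 4.79 in fasted pools, against 5.24, 4.88, 4.93 and 4.83 in fed pools, with a difference of 0.03 ± 0.15 (SE). Slc1a6 and Slc1a7 were at -0.16 and -0.03. Slc1a2 was not analysed here.

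The SLC6 family gave 18 genes, none of which passed, and 0 were at an unadjusted p under 0.05 in limma. Muscle is known to take up creatine and taurine through this family. Slc6a8 encodes the creatine carrier and had 7.78, 7.82, 7.69 and 8.04 in fasted pools, against 7.93, 7.83, 7.83 and 8.07 in fed pools. The differences within experiments were -0.15, -0.01, -0.14 and -0.03, all below 0 with overlapping groups, and the mean was -0.08 ± 0.10 (SE, interval -0.32 to 0.15). Slc6a6 encodes the taurine carrier and had 7.85, 7.80, 7.58 and 8.17 in fasted pools, against 7.53, 8.00, 7.96 and 8.09 in fed pools. Its differences of 0.31, -0.20, -0.38 and 0.08 had both signs, and the mean was -0.05 ± 0.14 (SE, interval -0.36 to 0.27).

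The betaine and GABA carrier Slc6a12 and the GABA carriers Slc6a11 and Slc6a13 were at -0.05, -0.05 and -0.15. Slc6a13 had 5.53, 5.76, 5.80 and 5.48 in fasted pools, against 5.78, 5.96, 5.73 and 5.71 in fed pools, lower in 3 of 4 experiments with overlapping groups (adjusted p = 0.733). All 5 genes for taurine, creatine, betaine and GABA carriers had mean differences between -0.15 and -0.05, and none passed. Over all clusters, 9107 of 16755 were below 0, and in experiment 3 the difference was above 0 for 3 of the 5. The family's 10 amino acid carriers had 9 mean differences above 0 and 1 below, where 7648 of all clusters were above 0. Of the 10 amino acid carriers of the family, Slc6a9, encoding the glycine carrier GlyT1, had 6.01, 5.84, 6.13 and 5.99 in fasted pools, against 5.98, 5.85, 6.19 and 5.80 in fed pools, a difference of 0.04 ± 0.10 (SE). Slc6a14, a carrier of neutral and cationic amino acids, had 3.61, 3.88, 3.88 and 3.66 in fasted pools, against 3.49, 3.73, 3.71 and 3.46 in fed pools. It was higher in 4 of 4 experiments with overlapping groups, at 0.16 ± 0.10 (SE, adjusted p = 0.659), and its row was among the 25% of clusters with the lowest mean. The other 8 lay between -0.13 for the proline carrier Slc6a7 and 0.14 for Slc6a20b, and the carriers of noradrenaline, dopamine and serotonin, Slc6a2, Slc6a3 and Slc6a4, were at 0.10, 0.10 and -0.07.

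The 4 experiments did not give the same sign for most of the set. Fasted exceeded fed for 19, 28, 48 and 38 of the 60 genes in experiments 1 to 4, or 31.7%, 46.7%, 80% and 63.3%. Over all clusters the shares were 38.6%, 44.2%, 59.2% and 50%, lowest in experiment 1 and highest in experiment 3 as in the set. The median difference of the set was -0.15, -0.01, 0.20 and 0.07, against -0.10, -0.04, 0.08 and 0.00 over all clusters. In 4 of 4 experiments 11 genes were higher and 4 lower, against 8.61% and 10.1% of all clusters. The 11 were the 8 named above with Slc36a4, Slc38a7 and Slc6a14, and the 4 were Slc38a4, Slc6a7, Slc6a8 and Slc7a12. Without experiment 3, 18 of the 60 genes took the other sign, none of them among the 8.

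**Figure D3:**
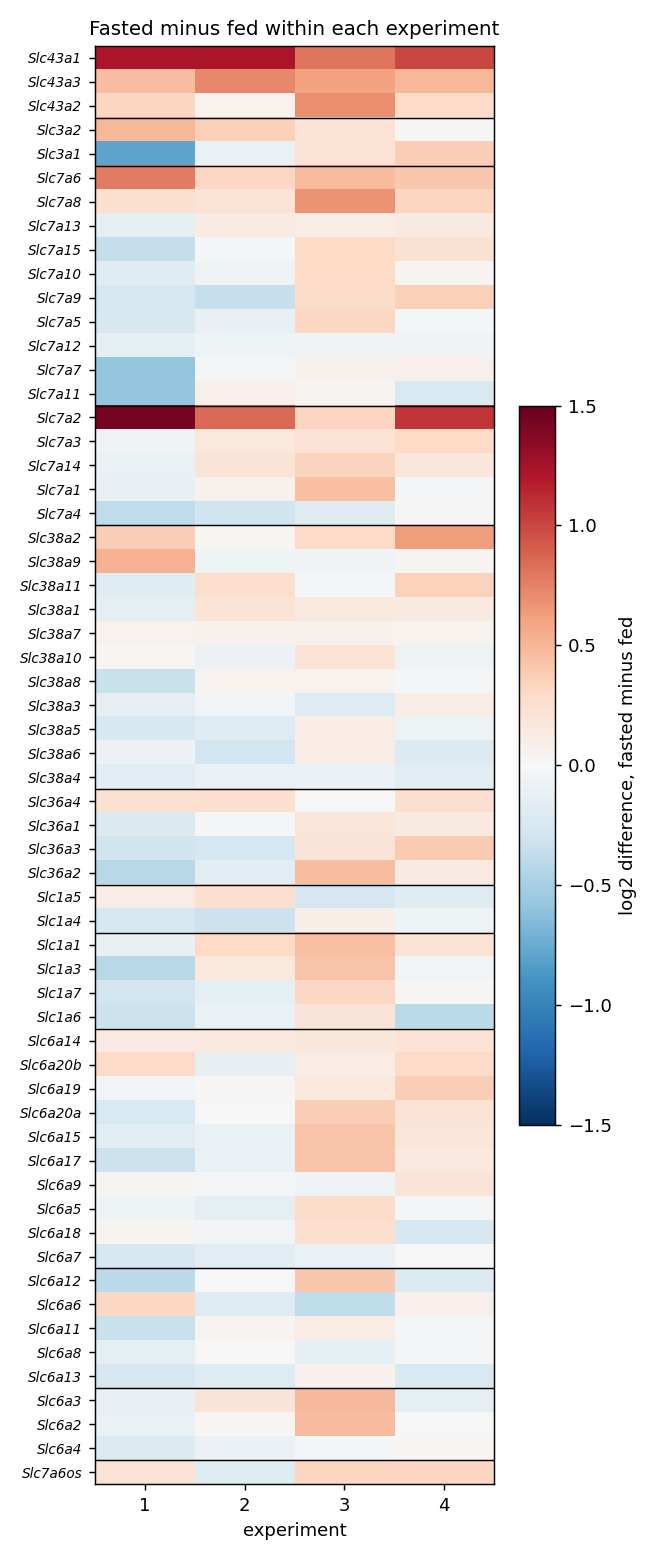
Log2 difference, fasted minus fed, of each of the 60 genes (rows, grouped by role with black lines between groups) in experiments 1 to 4 (columns), red for higher and blue for lower in the fasted pool. Slc43a1 is red throughout at 0.81 to 1.22, and in experiment 3 the column is above 0 for 48 of 60 genes.

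Levels near the bottom of the table may be background, since no detection calls were used here. The rows of 12 of the 60 genes lay in the 25% of clusters with the lowest mean, among them Slc7a11, Slc3a1 and Slc1a3. Their differences ran from -0.17 to 0.18, and none was at an unadjusted p under 0.05. The 8 genes with an unadjusted p under 0.05 were all among the other 48. Whether those 48 were above background was not tested. Among the 8, the mean fed levels of Slc7a8 and Slc43a2, 5.44 and 5.65, lay below the array medians of 5.76 to 5.91. Of the genes with the same sign in 4 of 4 experiments, Slc36a4, Slc6a14 and Slc7a12 lay in the lowest 25%.

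Genes that sense amino acids, or answer their shortage through ATF4, were read for comparison from a fixed list, of which 26 genes had a usable row. Of these, 2 rose, Sesn1 and Ddit4, and none fell, against 0.531% higher and 0.286% lower over all clusters. At an unadjusted p under 0.05, 6 were higher and 2 lower, against 5.15% and 5.79% of all clusters, and the list median was -0.04. Sesn1, a sestrin that restrains mTORC1, had 8.82, 8.27, 8.36 and 8.05 in fasted pools, against 6.86, 6.91, 6.84 and 6.83 in fed pools, with no overlap (log2 1.51 ± 0.14 SE, adjusted p = 0.00639). Ddit4, another inhibitor of mTORC1, had 7.38, 6.87, 7.07 and 6.94 in fasted pools, against 6.32, 6.25, 6.01 and 5.77 in fed pools, also with no overlap (log2 0.98 ± 0.12 SE, adjusted p = 0.0192). Its call ended without experiment 1 (adjusted p = 0.0939) and without experiment 4 (adjusted p = 0.0910). Chac1, an ATF4 target that degrades glutathione, had 8.31, 8.06, 8.42 and 8.17 in fasted pools, against 7.64, 7.51, 7.64 and 7.74 in fed pools, without overlap, and did not pass (log2 0.61 ± 0.11 SE, adjusted p = 0.0568), though it was past the threshold in 5 of the 12 other settings, with adjusted p from 0.0193 to 0.241. Ddit3, the stress transcription factor CHOP, had 7.67, 8.00, 7.53 and 7.96 in fasted pools, against 8.06, 8.34, 8.26 and 8.27 in fed pools. Every fasted pool of Ddit3 was below every fed pool (log2 -0.44 ± 0.11 SE, adjusted p = 0.178). Atf4 itself was at 0.40 ± 0.11 (SE, adjusted p = 0.218 by limma), higher in 4 of 4 experiments with overlapping groups. Asns, Trib3 and Atf5, also on the list, were at -0.08, -0.06 and -0.08 with overlapping groups.

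A second fixed list held carriers in other families, mainly of amino acids and peptides, and none of its 21 measured genes passed. At an unadjusted p under 0.05, 3 were higher and 1 lower in limma, against 5.15% and 5.79% of all clusters, and the median was 0.05. Slc16a10, encoding TAT1, a carrier of aromatic amino acids, had 5.74 to 6.21 in fasted pools, against 6.10 to 6.64 in fed pools. It was lower in 4 of 4 experiments with overlapping groups, at -0.46 ± 0.14 (SE, adjusted p = 0.252). Slc15a2, a proton-coupled peptide carrier, had 5.66, 5.12, 5.60 and 5.49 in fasted pools, against 4.79, 5.25, 5.15 and 4.49 in fed pools, a difference of 0.55 ± 0.19 (SE, adjusted p = 0.307) with both signs among experiments. The mitochondrial glutamate carrier Slc25a22 was at 0.31 ± 0.10 and the lysosomal histidine and peptide carrier Slc15a4 at 0.29 ± 0.10 (SE, adjusted p of 0.311 and 0.331), both higher in 4 of 4 experiments and without overlap.

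**Figure D4:**
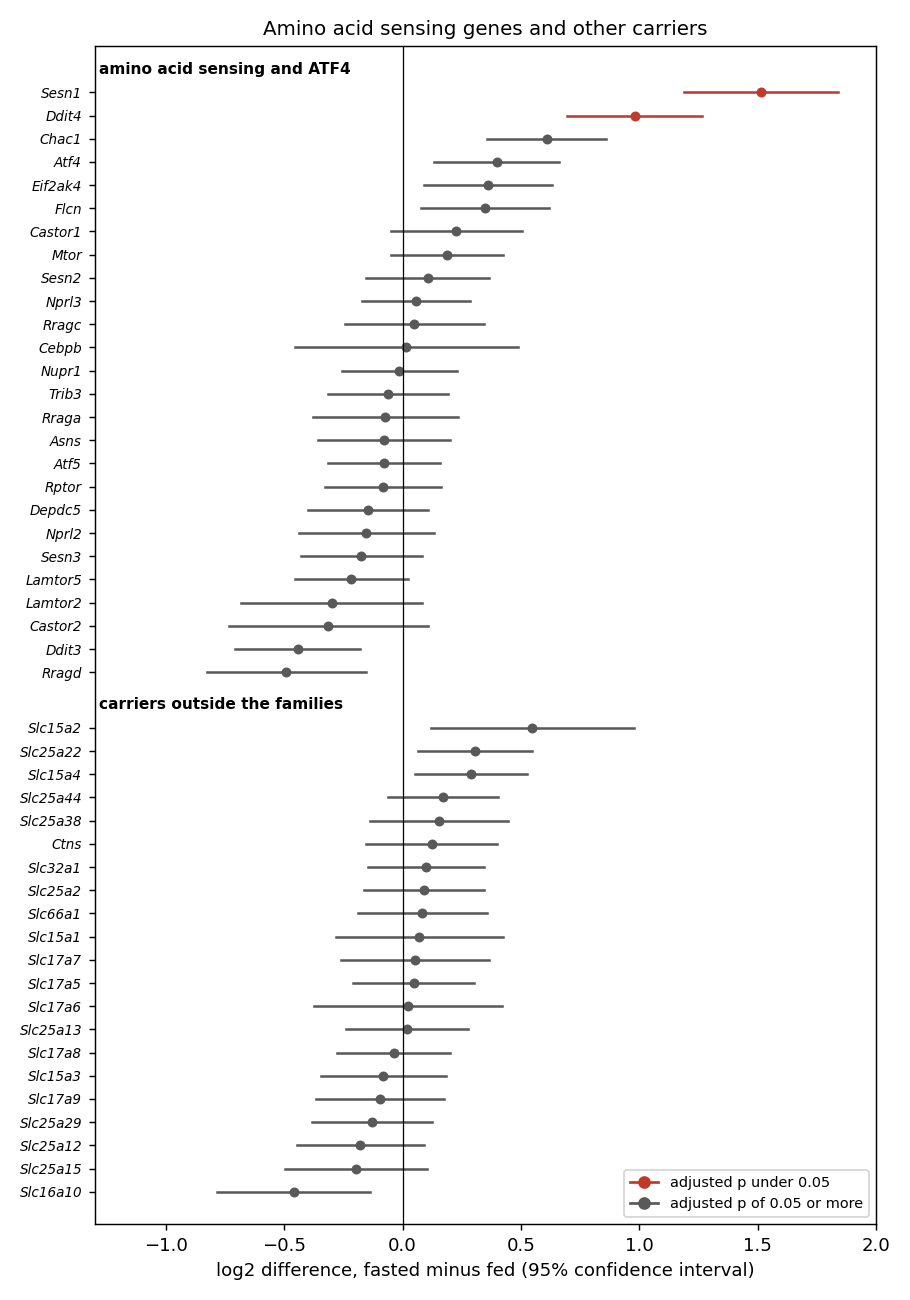
Log2 difference, fasted minus fed (horizontal axis), with 95% confidence intervals from limma, of 26 genes of amino acid sensing and the ATF4 response and of 21 carriers of other families (4 pools per group). Sesn1 at 1.51 and Ddit4 at 0.98, in red, passed the adjusted threshold, and the 21 carriers lie between -0.46 and 0.55.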

How the data were processed

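The authors deposited log2 values of 16755 transcript clusters on 8 arrays, made with RMA (background correction, normalization between arrays, summary of probes) per the submitters' processing notes. A human build, hg18, is listed there without a role, so no coordinates were taken from it. That the values are log2 follows from their range, 1.08 to 13.3. Per the labels' protocols, RNA was amplified to cDNA by NuGEN's SPIA chemistry and labelled with biotin, which can distort proportions between transcripts, and RMA compresses differences at low signal. Array medians were 5.76 to 5.91, correlations between arrays 0.957 to 0.980, and the median standard error 0.12; the number of arrays limits the precision.

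Symbols came from the platform annotation (14996 clusters with 1 symbol, 1019 with several, 740 with none). By Entrez number, all 60 genes of the set were found in RefSeq (GRCm38.p6), with the same symbol. Close paralogs, such as Slc6a20a and Slc6a20b, can share probe signal.

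The difference between fasted and fed pools was estimated with limma 3.58.1 under R 4.3.3 (lmFit, eBayes without trend, 3 residual and 4.84 prior degrees of freedom) over all clusters with a term for experiment; Benjamini-Hochberg adjustment ran over all clusters, with a threshold of 0.05. Each experiment number pairs a fasted and a fed pool per the series description; deviations of paired arrays from their group means correlated at -0.18, 0.06, -0.14 and 0.44 in experiments 1 to 4. The p-values rest on 4 pairs of pools, not on single mice. The fit was tested on simulated arrays. The members, lists and tests were chosen with earlier results of these data known. Alternatives are given in the closing section. Values of all 8 arrays are printed for the gene past the threshold, the 15 genes of smallest adjusted p and 18 fixed genes. In the fixed lists, the 4 genes with the smallest adjusted p are named. Atf4, Rragd, Eif2ak4, Flcn, Asns, Trib3 and Atf5 and the neighbours of Slc43a1 were chosen after values were seen. Promoter windows are RefSeq's for GRCm38.p6, shortened to the 250 bases before the start.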

Additional observations from a re-analysis of the deposited data

Results flagged for a closer look

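A sample far from the other 3 of its group was looked for in 218 groups of 4 pools, those of the 60 genes, of the genes on the sensing and carrier lists and of Fbxo32 and Pdk4. It was found in 11, and chance alone gives about 1 in 20. Among fasted pools, that of experiment 3 was the highest for Slc7a5 (6.55, others 6.18 to 6.25), Slc38a10 (6.57, others 6.28 to 6.33) and Slc6a15 (5.02, others 4.54 to 4.58), and the lowest for Slc3a2 (6.26, others 6.54 to 6.57). The fasted pool of experiment 4 was the highest for Slc38a3 (7.70, others 7.06 to 7.14) and for Flcn, a regulator of mTORC1 at the lysosome (7.05, others 6.84 to 6.85). Among fed pools, that of experiment 4 was the lowest for Slc7a3 (5.10, others 5.47 to 5.48), Slc7a13 (3.46, others 3.96 to 4.03) and Nprl3 (5.46, others 5.55 to 5.56) and the highest for Slc38a1 (5.52, others 5.18 to 5.23), and that of experiment 2 was the lowest for Slc1a5 (5.93, others 6.27 to 6.32). Slc43a1, Slc43a3, Slc7a2 and Slc7a6 had no such pool.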

How the results depend on the processing

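No call of a gene of the set changed its direction in 12 alternative settings. Against 1 gene higher in fasted muscle with experiment as a block, 2 were higher without the replicate block, 3 each with a random block for experiment, with the 25% of clusters of lowest mean removed, with array weights and with a trended robust prior, and 1 each after quantile normalization, after median centring and with a gene's rows averaged; 0 to 2 were when 1 experiment was left out, and 0 were lower in every setting. Slc43a1 passed in 9 of 12, Slc7a2 in 6, Slc43a3 in 3 and Slc7a6 in 1. No gene took the other sign after quantile normalization or median centring, 4 did with array weights and 4 to 18 when 1 experiment was left out. Over all clusters, 89 were higher and 48 lower; the counts were 143 and 86 with a random block, 32 and 13 after median centring, 149 and 91 without the lowest 25%, 153 and 112 with array weights, 130 and 86 with a trended robust prior, and 11 to 68 and 5 to 26 with 1 experiment left out. On the sensing list 1 to 2 genes were higher with 1 experiment left out, 3 each without the replicate block, with array weights, with a random block, without the lowest 25% and with a trended robust prior, and 2 each after quantile normalization and median centring. The cause of these changes was not tested; leaving out an experiment leaves fewer arrays.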

Other observations

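Several genes of the set are neighbours on their chromosome in RefSeq. Slc38a1, Slc38a2 and Slc38a4 lie side by side on chromosome 15, and their log2 differences were 0.08, 0.33 and -0.13, none past the test. Slc36a3, Slc36a2 and Slc36a1 follow each other on chromosome 11, at 0.01, 0.00 and 0.02. Slc6a12 and Slc6a13 on chromosome 6 were at -0.05 and -0.15, Slc6a18 and Slc6a19 on chromosome 13 at 0.00 and 0.13, and Slc6a20a and Slc6a20b on chromosome 9, which are close paralogs, at 0.09 and 0.14.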
